A study of Mus musculus with 18 samples.

Results

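Guides e12.3 and e12.4, a pair of Jmjd1c guides whose names place them on exon 12, were compared in mouse MLL-AF9 leukaemia cells to see how far they differ in the depth of the myeloid change that the Jmjd1c guides bring. The rule took the e12.3 and the e12.4 libraries of the series table, 3 of each and so 6 of 18 libraries, and the 11550 of 23899 listed genes whose mean over the 18 libraries was at least 1 FPKM. FPKM is a fragment count scaled to the length of the transcript and the depth of the library. The comparison was made with all 6 libraries and again without e12.3 replicate 3.

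Every library of the series came from cells that carry the MLL-AF9 fusion and Cas9, from a source labelled mouse primary leukaemia, grown in RPMI with fetal bovine serum, penicillin and streptomycin, and mouse interleukin-3. The e12.3 and e12.4 cells carried a Jmjd1c guide, and the Renilla cells a guide against the luciferase gene of a sea pansy, which the mouse genome lacks. Cells called mock, and cells with the Jmjd1c guides e20.1 and e21.1, served to choose genes outside the comparison and, in the same model, to estimate the spread between libraries, with 3 libraries in each of these groups too. The labels do not say what the mock cells received, when the cells were harvested after the guides were added, how many cells were edited, or whether replicates were separate cultures. All p-values below measure the spread between these libraries, which may be technical, in what the labels give as 1 leukaemia source. The series text names the jumonji and zinc finger domains of JMJD1C as guide targets without saying which guide goes to which domain.

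JMJD1C belongs to the KDM3 family of jumonji proteins, which take methyl groups off lysine 9 of histone H3 and are counted among the co-activators of transcription. MLL-AF9, a fusion of a histone methyltransferase with a partner from the elongation machinery, keeps the HOXA cluster and Meis1 switched on and holds myeloid progenitors in an immature, self-renewing state that still makes the enzymes of primary granules. When such cells mature, primary granule transcripts such as Mpo fall and genes of monocytes, macrophages or late neutrophils rise, and the size of both shifts is used here as the depth of the change.

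The exon that both guides are named for is shown because the comparison turns on it, although the labels give neither guide's sequence, site or exon numbering, nor the type of Cas9. In the GENCODE vM21 annotation of GRCm38 (mm10), Jmjd1c lies on chromosome 10 from 67096125 to 67256326 on the plus strand, and its transcripts number the exons differently. Exon 12 of the 26 exons of Jmjd1c-201 spans chr10:67231972-67232186, and exon 12 of the 25 exons of Jmjd1c-206 spans chr10:67233371-67233523. Both are coding along their whole length, 215 and 153 bases. Capitals mark the GG of each NGG, the motif that the common Cas9 of Streptococcus pyogenes needs beside its target, on the strand shown.
Jmjd1c-201 exon 12: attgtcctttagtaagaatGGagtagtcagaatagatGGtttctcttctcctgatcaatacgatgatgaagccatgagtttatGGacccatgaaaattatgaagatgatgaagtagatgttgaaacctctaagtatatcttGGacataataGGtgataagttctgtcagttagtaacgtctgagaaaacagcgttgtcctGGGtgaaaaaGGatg
Jmjd1c-206 exon 12: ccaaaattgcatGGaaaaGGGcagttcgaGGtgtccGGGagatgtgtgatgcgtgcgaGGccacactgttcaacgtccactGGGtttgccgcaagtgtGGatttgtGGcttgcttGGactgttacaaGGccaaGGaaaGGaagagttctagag
The first holds 8 NGG on this strand and 7 CCN, the same motif read on the other strand, and the second 15 and 6, so either exon offers many sites and the place of neither guide can be read from its name.

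One of the 6 libraries stood apart before any gene was tested. In a principal component analysis of all tested genes, the first component, with 26.2% of the variance, placed e12.4 replicates 1 to 3 at 15.3, 19.2 and 17.3, e12.3 replicates 1 and 2 at 6.61 and 14.6, and e12.3 replicate 3 at -21.6, among the Renilla and mock libraries (-35.0 to -14.3). On the second component (21.9%) e12.3 replicate 3 lay at -41.1 and e21.1 replicate 3 at -49.9, with the other 16 libraries above 0. Depth, estimated from the steps between low FPKM values, was 32.9, 30.5 and 69.8 M reads for e12.3 replicates 1 to 3 and 33.3, 31.8 and 33.8 M for e12.4. In this range 1 FPKM of a transcript of 2000 bases is at least 60.9 reads, so counting error adds little to such a value beside the spread between libraries. All 10 defining myeloid genes, among them Ptprc, Spi1 and Cebpa, were at 1 FPKM or more in the exon 12 libraries. Of the markers of other cells, 6 of 8 for T cells, 7 of 8 for B cells and 7 of 9 for erythroid cells were below 1 FPKM in every one of them, and erythroid Alas2 was listed at 0 in all 6. The 8 T cell markers summed to 4.17 to 10.9 FPKM in e12.3, 3.77 to 4.80 in e12.4 and 4.86 to 6.84 in Renilla. In the exon 12 libraries that sum rests mainly on Lck and Cd3d, with Lck highest in e12.3 replicate 3 (9.72 FPKM). The summed level of the 9 erythroid markers in the table was 8.28 to 11.4 FPKM in e12.3, 7.29 to 11.5 in e12.4 and 14.00 to 16.6 in Renilla. The summed level of 11 dendritic cell markers was 2.11 to 15.1 FPKM in e12.3, 10.6 to 11.4 in e12.4 and 1.512 to 2.558 in Renilla, that of 8 megakaryocyte markers 12.5 to 37.4, 38.1 to 43.2 and 17.6 to 19.5, and that of 11 stromal and endothelial markers 13.6 to 15.1, 17.22 to 18.01 and 10.2 to 11.3. Of these lists 9, 4 and 9 markers, in that order, were below 1 FPKM in all 6 exon 12 libraries, and the sums rest mainly on Cd74 and Itgax, on Itgb3 and Itga2b, and on Pecam1 and Pdgfrb, of which myeloid cells express several. Their part in the results was not tested. In a bulk library fewer cells of a kind and less RNA per cell cannot be told apart.

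Jmjd1c itself, the targeted gene, was at 66.6, 58.8 and 56.2 FPKM in e12.3 replicates 1 to 3 and 59.7, 74.4 and 70.9 in e12.4, beside 64.2, 85.4 and 85.4 in Renilla. The groups overlapped. The log2 difference, e12.4 minus e12.3, was 0.17 (95% interval -0.18 to 0.52, limma adjusted p = 0.90), and an exact two-sided permutation test gave p = 0.2, where 3 against 3 libraries allow no p below 0.1. The RNA level thus did not separate the guides beyond their spread, and a transcript level does not read how much of the gene was edited.

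Across all 11550 genes, limma on log2(FPKM + 1) called no gene different between the guides at an adjusted p under 0.05 with all 6 libraries (0 of 11550, 0%; smallest adjusted p = 0.90), and 0 to 4 genes under the other settings tried, with 4 when the libraries that stand apart were left out. The unadjusted p was under 0.05 for 249 genes higher with e12.4 (2.16% of those tested) and for 165 lower (1.43%). Without e12.3 replicate 3, 1 gene was called (0.00866%), a locus named BX890553.1 that 2 libraries list at 0, and 79 genes were higher (0.684%) and 50 lower (0.433%) at an unadjusted p under 0.05. Differences on this scale understate the fold change of genes with low FPKM. The typical gene was measured to within a factor of 1.26 (the median distance from the difference to either end of its 95% interval was 0.33 log2) with all libraries and 1.28 without that replicate, and for 91.6% and 94.1% of genes the whole interval lay within a 2-fold difference. Differences of 2-fold or more were seen for 110 genes with all libraries and for 68 without e12.3 replicate 3, and the missed threshold does not show that the guides act alike.

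A wider measure of the change was read from genes chosen in other libraries, whatever their function, so it is not the myeloid depth as such. Primary granule, monocyte and late neutrophil lists follow further below. Without e12.3 replicate 3 their median differences, e12.4 minus e12.3, were -0.11, 0.01 and 0.39 log2. Guides e20.1 and e21.1 together against mock, in a fit of those 3 groups alone, called 557 genes higher (4.82% of genes tested) and 81 lower (0.701%), and no library that chose them enters the e12.4 and e12.3 means, though these libraries share the estimate of the spread behind the p-values. Of the 557, 483 lay higher with e12.4 than with e12.3 (86.7%, against 46% of all genes), with a median difference of 0.20 log2 against -0.02 over all genes. Of the 81, 71 lay lower with e12.4 (87.7%, against 53.9% of all genes), with a median of -0.17. Genes that rise with the other guides were thus further up with e12.4, and genes that fall with them further down, by a small amount that no single gene carried past the test. At an unadjusted p under 0.05, 121 of the 557 lay higher with e12.4 (against 2.16% of all genes) and 1 lower (against 1.43% of all genes), and 19 of the 81 lay lower and none higher. Because the choosing libraries share the estimate of the spread, the choice favours small p in both lists, here and without e12.3 replicate 3. These counts and the shares of all genes are therefore not fully alike. The e12.4 and e12.3 libraries did not overlap, with e12.4 higher, for 22.3% of the 557 (against 4.96% of all genes), and with e12.4 lower for 22 of the 81 (27.2%, against 5.09%).

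Part of that difference came with e12.3 replicate 3. Without it 477 of the 557 still lay higher with e12.4 (85.6%, against 48.4% of all genes) with a median of 0.14, and 64 of the 81 lay lower (79%, against 51.5%) with a median of -0.10. At an unadjusted p under 0.05 29 of the 557 then lay higher (against 0.684% of all genes) and 1 lower (against 0.433% of all genes), and 10 of the 81 lay lower and none higher. The medians kept their direction whichever of the 6 libraries was left out, from 0.14 to 0.26 for the 557 and from -0.23 to -0.10 for the 81. For the 557 this could hardly come out otherwise, as each e12.3 library median lay below each e12.4 library median (values below).

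**Figure D1:**
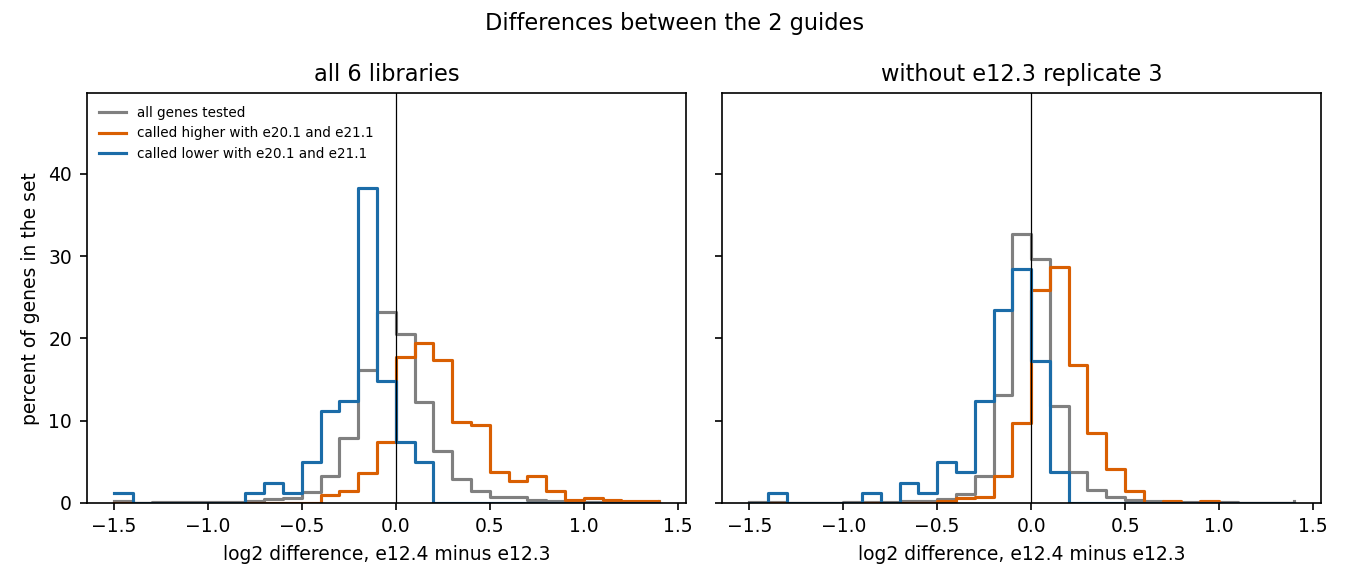
Percent of genes in each bin of 0.1 log2 of the difference e12.4 minus e12.3, for all 11550 genes tested (grey), the 557 genes called higher (orange) and the 81 called lower (blue) with e20.1 and e21.1 against mock, with all 6 libraries on the left and without e12.3 replicate 3 on the right. Differences beyond 1.5 are counted in the outermost bins. The orange curve lies to the right of the grey and the blue to its left in both panels, with medians of 0.20 and -0.17 on the left and 0.14 and -0.10 on the right.

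Library by library, the median of the 557 genes above the Renilla mean was 0.68, 0.84 and 0.50 log2 in e12.3 replicates 1 to 3 and 0.87, 0.88 and 0.87 in e12.4. The 3 e12.4 libraries lay close together, and all 3 e12.3 libraries lay below them, replicate 2 by the least. For the 81 genes the medians were -0.33, -0.48 and -0.23 in e12.3 and -0.47, -0.51 and -0.50 in e12.4, and here e12.3 replicate 2 lay inside the range of e12.4. The e20.1 libraries stood at 0.78, 0.88 and 0.84 and the e21.1 libraries at 0.94, 0.91 and 0.92 for the 557 genes they chose. The e12.4 values fell within that range, and e12.3 replicates 1 and 3 fell below it. Because the genes were chosen for being higher in the e20.1 and e21.1 libraries, the choice favours high values there. The range therefore cannot show whether e12.3 or e12.4 differs in depth from the other 2 guides. The 3 e12.3 libraries differed among themselves, from 0.50 to 0.84, by more than e12.3 replicate 2 differed from e12.4.

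**Figure D2:**
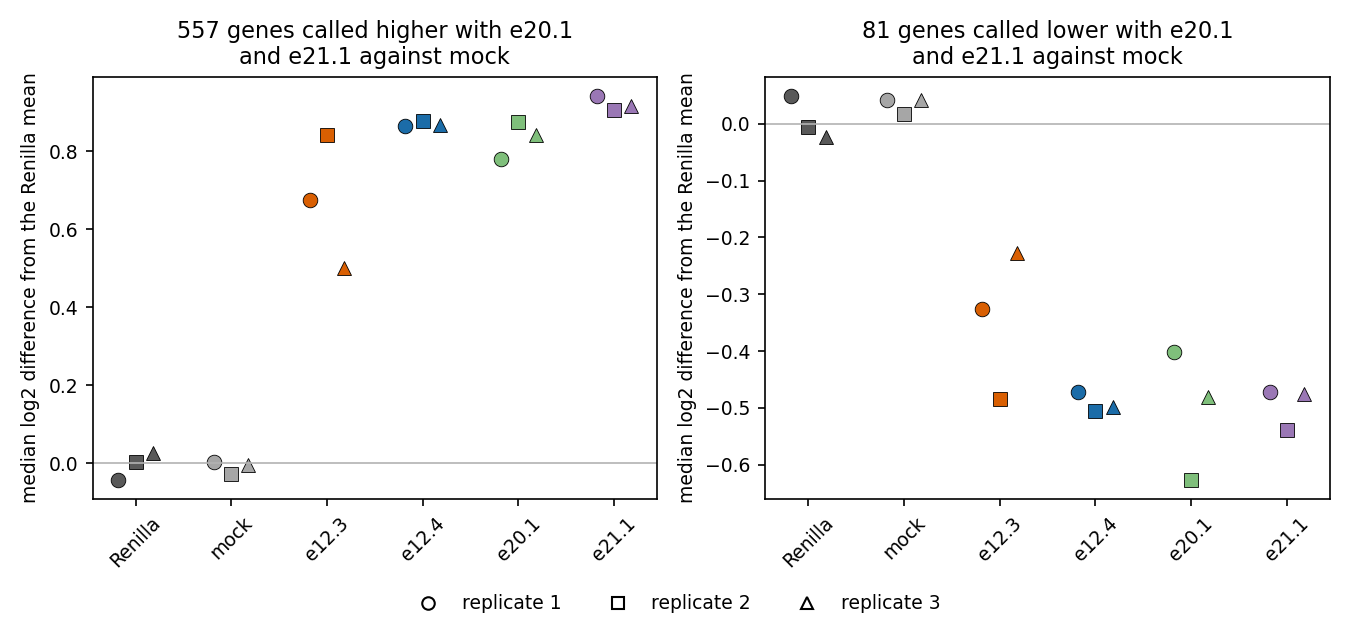
Median log2(FPKM + 1) difference from the Renilla mean over the 557 genes called higher (left) and the 81 called lower (right) with e20.1 and e21.1 against mock, 1 point for each of the 18 libraries by group, with the marker showing the replicate number. The e12.4 points sit together at 0.87 to 0.88 on the left, and the e12.3 points spread from 0.50 to 0.84.

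Set against Renilla, each guide changed many genes, and more were called for e12.4. Limma called 370 genes for e12.3 (3.2% of 11550; 350 higher, 3.03%, and 20 lower, 0.173%), 392 for e12.3 without replicate 3 (3.39%; 376 higher, 3.26%, and 16 lower, 0.139%) and 819 for e12.4 (7.09%; 643 higher, 5.57%, and 176 lower, 1.52%). The comparisons share the Renilla libraries, so their counts are given side by side only. Of the 557 genes from the other guides, e12.3 was called higher for 313 (56.2%), e12.3 without replicate 3 for 351 (63.0%) and e12.4 for 473 (84.9%). Of the 81, e12.3 was called lower for 8 (9.88%), without replicate 3 for 7 (8.64%), and e12.4 for 50 (61.7%). These counts depend on the spread within each guide as well as on the size of its change: with only e12.3 and Renilla in the model 80 genes were called, against 1156 with only e12.4 and Renilla. The medians of the 557 were 0.69, 0.75 and 0.87 log2 above Renilla for e12.3, e12.3 without replicate 3 and e12.4, and those of the 81 were -0.34, -0.40 and -0.47.

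Primary granule genes, which promyelocytes express, did not pass the test between the guides, but 2 of those fixed for naming, Mpo and Ms4a3, passed it under some alternatives. Mpo (chromosome 11, 87793581 to 87804413, plus strand, mm10), the myeloperoxidase that makes hypochlorous acid, was at 1376, 1158 and 1084 FPKM in Renilla, 377, 384 and 1025 in e12.3 replicates 1 to 3 and 182, 138 and 133 in e12.4. All 3 e12.4 libraries lay below all 3 e12.3 libraries, and e12.3 replicate 3 lay close to Renilla. The mean with e12.3 was 3.94 times that with e12.4, or 2.52 times without replicate 3, and the log2 differences were -1.82 (-2.76 to -0.87; limma adjusted p = 0.90) and -1.34 (-2.26 to -0.43; adjusted p = 1.0). When all 4 libraries that stand apart in this series were left out, a choice made after the values were seen, limma called Mpo lower with e12.4 (adjusted p = 0.0032). The 4 are e12.3 replicate 3, e21.1 replicate 3, Renilla replicate 1 and e20.1 replicate 2. They had the lowest array quality weights of the 18 libraries (0.19, 0.15, 0.22 and 0.18), where such weights count a variable library less. On the first 2 principal components e20.1 replicate 2, at 17.3 and 2.79, lay near the e12.4 libraries. Mpo was also called lower with array quality weights (limma adjusted p = 0.016 with all libraries, 0.047 without e12.3 replicate 3), and with both replicate 3 libraries of e12.3 and e21.1 left out (0.0031). The other settings tried did not call it. An exact permutation test of Mpo alone gave p = 0.1, the smallest that 3 against 3 allow.

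Ms4a3 (chromosome 19, 11629496 to 11640851, minus strand), a membrane protein of granulocyte and monocyte progenitors, stood at 432, 355 and 310.1 FPKM in Renilla, 214, 213 and 141 in e12.3 and 145, 132 and 141 in e12.4. Here e12.3 replicate 3 fell inside the e12.4 range while replicates 1 and 2 lay above it. The log2 difference was -0.41 (-0.93 to 0.11) with all libraries and -0.61 (-1.16 to -0.07) without replicate 3, and it was called without the 4 libraries that stand apart (limma adjusted p = 0.012). Ctsg, the granule protease cathepsin G, was at 444, 548 and 682 FPKM in e12.3 and 411, 353 and 315 in e12.4, against 1019, 811 and 778 in Renilla. Its groups did not overlap, with a log2 difference of -0.62 (-1.12 to -0.12) and, without replicate 3, -0.46 (-1.004 to 0.08). Prtn3, proteinase 3, was at 776, 852 and 1175 FPKM in e12.3 and 732, 656 and 684 in e12.4, and e12.4 again lay below every e12.3 library. It was chosen after its values were seen and is given as values only.

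Elane, neutrophil elastase, did not follow Mpo in replicates 1 and 2. It stood at 618, 712 and 2012 FPKM in e12.3 and 642, 540.2 and 555 in e12.4, beside 1345, 1060.3 and 1083 in Renilla, so the groups overlapped and e12.3 replicate 3 was above Renilla. Its log2 difference of -0.73 (-1.60 to 0.14) shrank to -0.20 (-0.95 to 0.55) without that library. Of the 14 primary granule genes listed, 12 were tested, and Azu1, not in the table, and Fcnb, below 1 FPKM, were not. With all libraries 8 of the 12 lay lower with e12.4 (66.7%, against 53.9% of all genes), with a median of -0.08, and without replicate 3 it was 9 of 12 (75%, against 51.5%) and -0.11. Against Renilla, e12.3 was called lower for 1 of the 12 (against 0.173% of all genes), e12.3 without replicate 3 for 1 (against 0.139%) and e12.4 for 4 (against 1.52%). Called higher were none for e12.3 (against 3.03% of all genes), 1 for e12.3 without replicate 3 (against 3.26%) and 1 for e12.4 (against 5.57%).

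**Figure D3:**
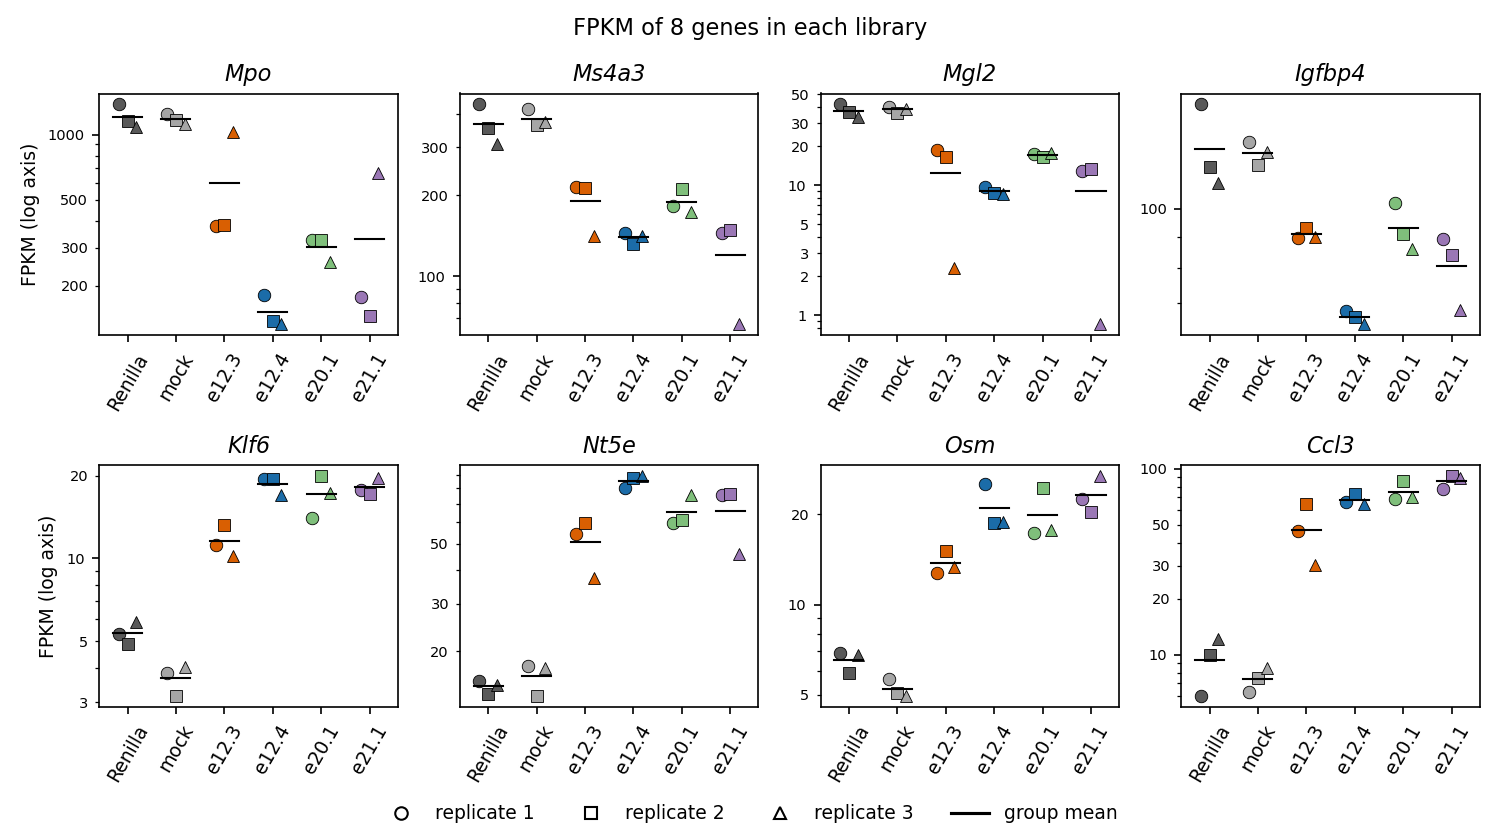
FPKM on a log axis of Mpo, Ms4a3, Mgl2, Igfbp4, Klf6, Nt5e, Osm and Ccl3 in the 18 libraries by group, with the marker showing the replicate number and a bar at the group mean. The e12.4 points of Mpo (133 to 182 FPKM) sit below all e12.3 points (377 to 1025 FPKM), those of Klf6 (17.01 to 19.5) above all e12.3 points (10.2 to 13.2), and the e12.3 replicate 3 triangle lies away from its group for Mpo, Ms4a3 and Mgl2.

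Mgl2, a C-type lectin of macrophages and dendritic cells, had a pattern like that of Ms4a3. It was at 41.7, 36.2 and 33.4 FPKM in Renilla, 18.7, 16.5 and 2.31 in e12.3 and 9.78, 8.76 and 8.51 in e12.4. Replicates 1 and 2 of e12.3 lay between Renilla and e12.4, and replicate 3 lay far below every e12.4 library. The log2 difference was -0.06 (-1.47 to 1.35) with all libraries, where an exact permutation test gave p = 1.0, and -0.89 (-2.14 to 0.36) without replicate 3. It was called lower with e12.4 once e21.1 replicate 3, at 0.854 FPKM, was left out as well (limma adjusted p = 0.0031).

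Monocyte and macrophage genes as a list did not separate the guides once e12.3 replicate 3 was left out. Of the 20 tested of 26 listed, 17 lay higher with e12.4 (85%, against 46% of all genes) with a median of 0.24 log2, and without replicate 3 it was 13 (65%, against 48.4%) with a median of 0.01. The list's median above the Renilla mean was 0.74, 1.12 and 0.53 in e12.3 and 1.04, 1.02 and 1.08 in e12.4, so e12.3 replicate 2 exceeded e12.4 while replicates 1 and 3 lay below. Limma called 10 of the 20 higher than Renilla for e12.3 (against 3.03% of all genes), 12 without replicate 3 (against 3.26%) and 14 for e12.4 (against 5.57%). Ctss, cathepsin S of antigen-processing lysosomes, was at 4.97, 3.57 and 3.58 FPKM in Renilla, 36.96, 53.7 and 27.3 in e12.3 and 49.1, 42.4 and 42.98 in e12.4. It was called higher than Renilla with either guide (limma adjusted p = 3.4e-06 and 3.5e-07), the e12.3 and e12.4 values overlapped, and their difference without replicate 3 was 0.005 (-0.41 to 0.42). Csf1r, the receptor for the macrophage growth factor M-CSF, was at 9.15, 15.01 and 5.72 FPKM in e12.3 and 10.7, 12.6 and 10.3 in e12.4, against 2.04, 2.36 and 2.33 in Renilla, with a difference of 0.24 (-0.22 to 0.71). Irf8, a transcription factor of the monocyte lineage, was at 28.1, 40.3 and 42.5 FPKM in e12.3 and 38.5, 42.4 and 36.3 in e12.4, against 10.6, 11.1 and 11.4, with a difference of 0.10 (-0.42 to 0.61). Itgam, the CD11b chain that marks myeloid maturation, was at 85.6, 92.8 and 47.4 FPKM in e12.3 and 94.8, 101 and 104 in e12.4, beside 40.8, 54.01 and 57.96 in Renilla, and only the third e12.3 library was near Renilla.

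Toll-like, Fc and paired immunoglobulin-like receptors, by which phagocytes sense microbes and antibodies, gave a similar picture. Of 26 tested, 20 lay higher with e12.4 (76.9%, against 46% of all genes) with a median of 0.23, and 18 (69.2%, against 48.4%) with a median of 0.07 without replicate 3. Those called higher than Renilla numbered 12 for e12.3 (against 3.03% of all genes), 15 without replicate 3 (against 3.26%) and 18 for e12.4 (against 5.57%). Lilra6, a paired immunoglobulin-like receptor whose close relatives may share its reads, was at 2.65, 3.07 and 4.94 FPKM in Renilla, 25.5, 33.6 and 12.9 in e12.3 and 33.6, 32.3 and 39.02 in e12.4. Tlr7, the sensor of single-stranded RNA, was at 1.07, 2.08 and 0.423 FPKM in e12.3 and 2.26, 2.9 and 2.2 in e12.4, against 0.151, 0.183 and 0.179, and here every e12.4 library lay above every e12.3 library (difference 0.72, 0.20 to 1.25). Lilra6 and Tlr7, like the list members below that were not fixed for naming, were picked for small p in this comparison. Groups that do not overlap and intervals off 0 are favoured by that choice and are given as values only. Lysosomal hydrolases gave medians of 0.06 and 0.01 over 20 genes, and the 7 subunits of the phagocyte NADPH oxidase 0.03 and 0.05.

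Chemokines, cytokines and their regulators kept part of their difference without replicate 3. Of 15 tested of 21 listed, 14 lay higher with e12.4 (93.3%, against 46% of all genes) with a median of 0.50, and 13 (86.7%, against 48.4%) with a median of 0.29 without replicate 3. Limma called 6, 5 and 9 of them higher than Renilla for e12.3, e12.3 without replicate 3 and e12.4 (against 3.03%, 3.26% and 5.57% of all genes). Osm, oncostatin M, a cytokine induced by interleukin-3 through STAT5, was at 6.86, 5.92 and 6.76 FPKM in Renilla, 12.7, 15.1 and 13.3 in e12.3 and 25.3, 18.7 and 18.9 in e12.4. Each e12.4 library lay above each e12.3 library, including replicate 3, and the difference was 0.57 (0.26 to 0.88) and 0.55 (0.19 to 0.91) without it. Osm was chosen after its values were seen, so this separation is no support for a difference. Ccl6, a macrophage chemokine, was at 64.2, 79.05 and 42.6 FPKM in e12.3 and 81.6, 89.99 and 116 in e12.4, against 19.4, 16.2 and 17.95 in Renilla, and its groups did not overlap either (difference 0.65, 0.23 to 1.07). Ccl3, a chemokine for monocytes also named MIP-1-alpha, was at 46.02, 64.4 and 30.2 FPKM in e12.3 and 65.7, 72.7 and 64.1 in e12.4, against 5.98, 9.91 and 12.1, where e12.3 replicate 2 came just inside the e12.4 range. Wfdc17, a small secreted protein, was at 204, 315 and 65.7 FPKM in e12.3 and 291, 271 and 279 in e12.4, against 26.7, 23.98 and 25.2, and its difference went from 0.79 (-0.03 to 1.61) to 0.14 (-0.35 to 0.64) without replicate 3.

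Integrins and other adhesion genes lay higher with e12.4 for 12 of 16 tested (75%, against 46% of all genes), with medians of 0.23 and, without replicate 3, 0.15. For 7 of the 16 the e12.4 libraries lay above all e12.3 libraries (43.8%, against 4.96% of all genes), and for 7 also without replicate 3 (43.8%, against 7.95%). Itgb7, the integrin beta-7 chain of leukocyte homing, was at 25.9, 20.8 and 43.9 FPKM in Renilla, 57.2, 92.8 and 33.3 in e12.3 and 110.3, 104 and 95.97 in e12.4, with a difference of 0.87 (0.18 to 1.55). Itgb3, the beta-3 chain of the vitronectin receptor, was at 22.7, 20.3 and 9.17 FPKM in e12.3 and 28.3, 25.3 and 25.1 in e12.4, against 6.9, 5.73 and 5.74, with 0.66 (0.12 to 1.19). Itgb2, the CD18 chain shared by CD11 integrins, was at 261, 276 and 208 FPKM in e12.3 and 302, 296 and 300.4 in e12.4, against 175, 183 and 178, with 0.28 (0.05 to 0.51). In all 3 genes replicate 3 was the lowest of the e12.3 libraries, and without it the differences were 0.50, 0.28 and 0.16, with intervals that include 0. The number called higher than Renilla was 3 for e12.3 (against 3.03% of all genes), 6 without replicate 3 (against 3.26%) and 8 for e12.4 (against 5.57%), and 1 was called lower for e12.4 (against 1.52%).

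Late neutrophil genes went the other way with replicate 3. Of 19 tested of 24 listed, 10 lay higher with e12.4 (52.6%, against 46%) with a median of 0.10, and 16 (84.2%, against 48.4%) with a median of 0.39 once replicate 3 was left out. The list's median above Renilla was 0.11, 0.90 and 1.26 in e12.3 and 0.81, 0.99 and 0.97 in e12.4, so e12.3 ran from the lowest to the highest of the 6 libraries. Olfm4, a protein of a subset of neutrophil granules, was at 9.41, 9.63 and 12.6 FPKM in Renilla, 22.6, 40.6 and 118 in e12.3 and 59.7, 65.6 and 54.4 in e12.4. Ngp, neutrophilic granule protein, was at 28.9, 66.3 and 187 FPKM in e12.3 and 83.5, 93.2 and 87.98 in e12.4, against 23.4, 24.3 and 33.7. In both genes e12.3 replicate 3 was above all e12.4 libraries and replicates 1 and 2 were below them, and without replicate 3 the differences were 0.96 (0.20 to 1.71) and 0.99 (-0.03 to 2.01). Ly6g, a surface marker of neutrophils, was at 1.71, 2.82 and 2.47 FPKM in e12.3 and 3.72, 3.33 and 5.18 in e12.4, against 2.66, 1.76 and 1.6, with e12.4 higher in every library (difference 0.60, 0.11 to 1.10).

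Interleukin-3, the growth factor in the medium, acts through STAT5. Of 20 tested genes of the interleukin-3 and STAT5 response, none was called between the guides, 14 lay higher with e12.4 (70%, against 46% of all genes) with a median of 0.04, and 17 (85%, against 48.4%) with a median of 0.14 without replicate 3. Csf2rb, the signalling chain that the interleukin-3, interleukin-5 and GM-CSF receptors share, was at 41.1, 50.4 and 47.9 FPKM in Renilla, 95.4, 111 and 71.96 in e12.3 and 109, 136 and 135 in e12.4, with e12.3 replicate 2 inside the e12.4 range and a difference of 0.46 (0.09 to 0.84). Cish, a feedback inhibitor induced by STAT5, was at 65.2, 70.9 and 83.4 FPKM in e12.3 and 66.4, 78.1 and 92.6 in e12.4, against 17.6, 27.02 and 20.9, with a difference of 0.10 (-0.37 to 0.58), and was called higher than Renilla with either guide (limma adjusted p = 0.00031 and 8.9e-05). Of 18 immediate-early and RAS-MAPK feedback genes, 11 lay higher with e12.4 (61.1%, against 46% of all genes) with a median of 0.08, and all 18 (100%, against 48.4% of all genes) with a median of 0.20 without replicate 3. Egr1, the zinc finger factor that growth factors induce within minutes, was at 0.664, 0.335 and 0.7 FPKM in Renilla, 4.7, 4.41 and 5.25 in e12.3 and 12.9, 7.49 and 5.37 in e12.4. The e12.4 libraries all lay above e12.3, the third only just, and the difference was 0.65 (0.13 to 1.18).

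Metabolic lists also depended on e12.3 replicate 3. All 24 cholesterol synthesis and uptake genes lay higher with e12.4 (100%, against 46% of all genes) with a median of 0.37, and 22 (91.7%, against 48.4%) with a median of 0.16 without replicate 3. Their median above Renilla was 0.30, 0.34 and -0.35 in e12.3 and 0.67, 0.51 and 0.34 in e12.4, so of the exon 12 libraries the third of e12.3 alone lay below the Renilla mean. Outside them, e21.1 replicate 3 lay as low (-0.35), and the mock libraries were at -0.05, -0.09 and -0.18. Insig1, the sterol sensor that holds SREBP in the endoplasmic reticulum, was at 45.2, 54.4 and 25.2 FPKM in e12.3 and 73.1, 62.9 and 54.2 in e12.4, against 39.1, 42.4 and 46.1, with a difference of 0.65 (0.15 to 1.15) that became 0.34 (-0.08 to 0.75) without replicate 3. Of 32 genes of the ATF4 stress response, amino acid synthesis and tRNA charging, 31 lay lower with e12.4 (96.9%, against 53.9%) with a median of -0.30, but 23 (71.9%, against 51.5%) with a median of -0.05 without replicate 3. Psph, the last enzyme of serine synthesis, was at 58.2, 43.9 and 40.8 FPKM in Renilla, 35.5, 31.8 and 72.3 in e12.3 and 25.3, 23.02 and 21.8 in e12.4. It kept a difference of -0.51 (-0.97 to -0.05) without replicate 3, and replicates 1 and 2 also lay above e12.4.

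None of 4 genes central to the leukaemia programme was called between the guides, and with all libraries the interval of each included 0. Hoxa9, which MLL fusions hold on, was at 82.7, 102 and 99.8 FPKM in e12.3 and 80.04, 89.2 and 93.4 in e12.4, against 64.2, 99.2 and 108 in Renilla, with a difference of -0.11 (-0.47 to 0.25). Meis1, its cofactor, was at 32.9, 34.98 and 29.5 FPKM in e12.3 and 36.8, 37.5 and 35.04 in e12.4, against 28.8, 38.7 and 38.3, with 0.16 (-0.06 to 0.38). Every e12.4 library lay above every e12.3 library for Meis1, if only just. Myb, a transcription factor these leukaemias depend on, was at 197, 221 and 144 FPKM in e12.3 and 190.0, 236 and 219.8 in e12.4, against 189.5, 262 and 244, with 0.22 (-0.24 to 0.68). Myc, which drives growth and ribosome production, was at 88.02, 102 and 152 FPKM in e12.3 and 106, 105 and 96.02 in e12.4, against 104, 106 and 115, with -0.12 (-0.48 to 0.24). Over the 22 tested MLL-fusion targets the median difference was 0.17, and 0.03 without replicate 3. Against Renilla, 2 of the 22 were called higher for e12.3 (against 3.03% of all genes) and 2 for e12.4 (against 5.57%). None was called lower for e12.3 (against 0.173%) or e12.4 (against 1.52%).

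Growth and division genes differed between the guides by small amounts. The 34 genes of MYC targets and ribosome biogenesis had a median of -0.09 with and without replicate 3, with 26 and 29 lower with e12.4 (76.5% and 85.3%, against 53.9% and 51.5% of all genes). Limma called 3 of them lower than Renilla for e12.4 (against 1.52% of all genes) and none for e12.3 (against 0.173%). The 30 DNA replication genes had medians of 0.01 and -0.07, and the 24 mitosis genes -0.15 and -0.01. Cdkn1a, the p21 inhibitor of cyclin-dependent kinases, was at 71.5, 75.8 and 64.3 FPKM in Renilla, 104, 138 and 104 in e12.3 and 119, 151 and 136 in e12.4, with a difference of 0.24 (-0.04 to 0.51), and was called higher than Renilla with either guide (limma adjusted p = 0.0053 and 0.00025), for e12.3 not with only e12.3 and Renilla in the model (0.12). The other lists gave the following medians. They were 0.00 with all libraries and 0.07 without replicate 3 for 14 transcription factors of myeloid fate, 0.12 and 0.06 for 11 growth factor receptors, 0.15 and 0.11 for 15 progenitor genes, and 0.10 and 0.02 for 16 p53 pathway genes. They were 0.09 and -0.01 for 18 interferon response genes, -0.11 and -0.02 for 17 MHC class I genes, 0.14 and -0.05 for 11 mast cell, basophil and eosinophil genes, and -0.08 and 0.01 for 17 H3K9 demethylases and methyltransferases. The plot of list medians shows all 24 lists, among which late neutrophil, chemokine, immediate-early and cholesterol genes had the 4 highest medians without replicate 3.

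**Figure D4:**
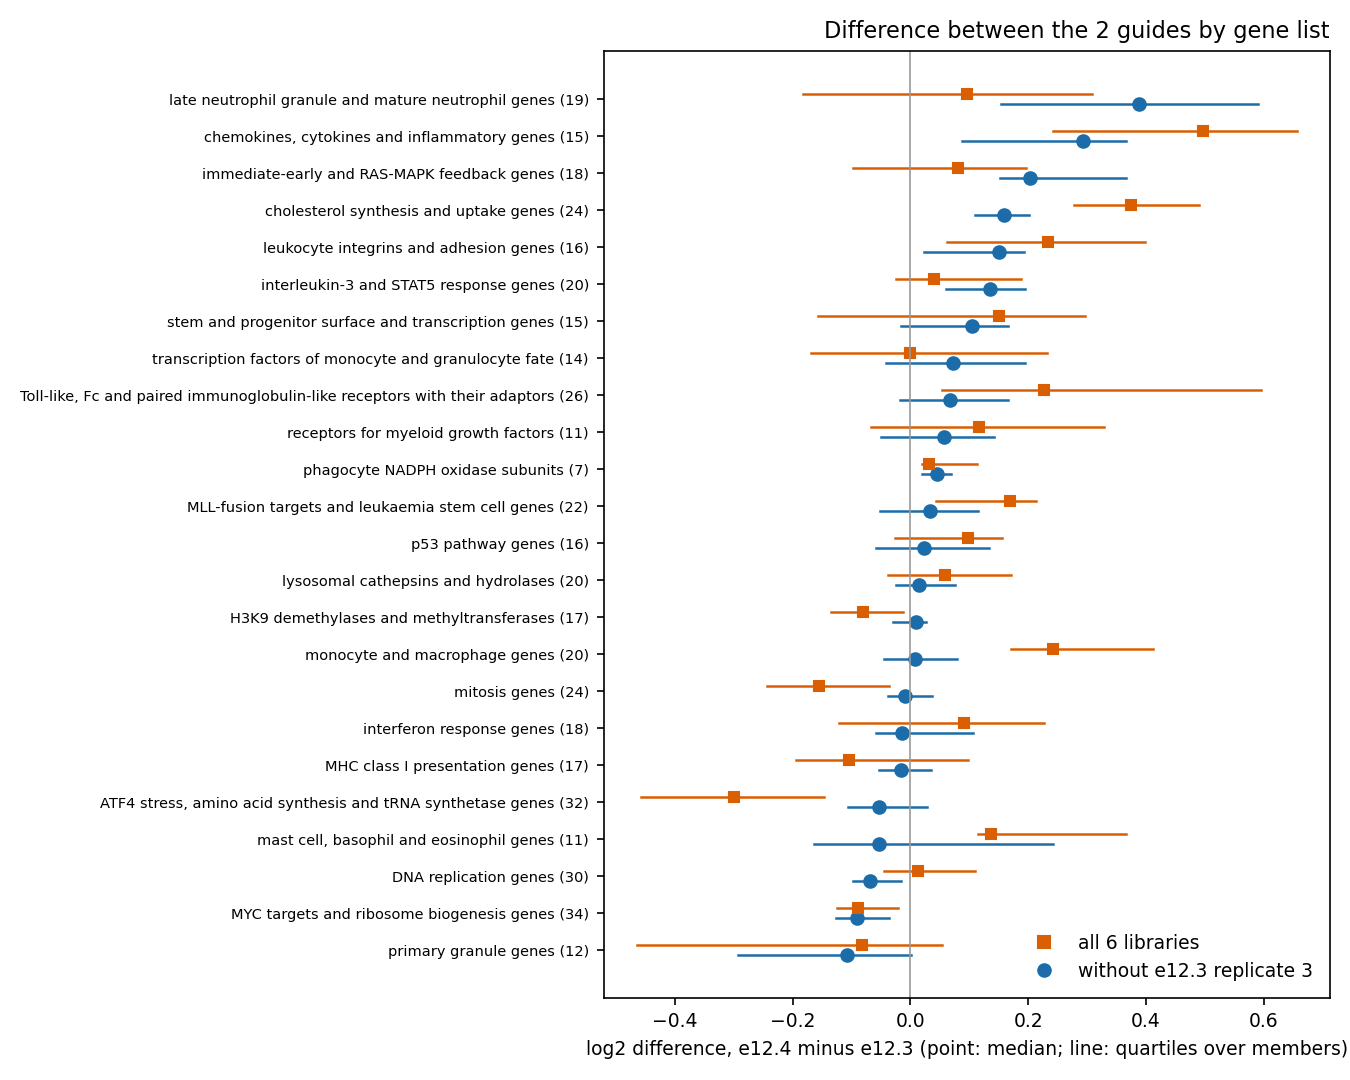
Median (point) and quartiles (line) over the tested members of each of 24 gene lists of the log2 difference e12.4 minus e12.3, with all 6 libraries (orange squares) and without e12.3 replicate 3 (blue circles), and the number of members tested in parentheses. Leaving out the replicate moves monocyte genes from 0.24 to 0.01 and ATF4 genes from -0.30 to -0.05, and late neutrophil genes from 0.10 to 0.39.

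A further set of genes was picked for small p in this comparison after the values were seen, and these are given as values only. Klf6, a zinc finger factor of macrophage activation, had the smallest p with all libraries, at 5.31, 4.88 and 5.86 FPKM in Renilla, 11.2, 13.2 and 10.2 in e12.3 and 19.4, 19.5 and 17.01 in e12.4. Its differences were 0.65 (0.38 to 0.93) and 0.57 (0.27 to 0.87) without replicate 3, so it owed little to that library. Nt5e, the surface enzyme CD73 that makes adenosine, was at 54.3, 59.8 and 37.5 FPKM in e12.3 and 80.1, 87.7 and 88.7 in e12.4, against 15.6, 13.98 and 14.99, with 0.77 (0.37 to 1.18). Cd28, a co-stimulatory receptor best known from T cells, was at 4.46, 5.07 and 2.56 FPKM in e12.3 and 7, 7.35 and 7.2 in e12.4, against 0.838, 1.37 and 1.37, with 0.74 (0.35 to 1.12). Igfbp4, which binds insulin-like growth factors, lay lower with e12.4, at 89.6, 92.8 and 89.9 FPKM in e12.3 and 68.03, 66.4 and 64.6 in e12.4, against 148, 117 and 110.2, with -0.45 (-0.69 to -0.20). Adgrl4, an adhesion receptor of the latrophilin family on the progenitor list, was at 8.79, 7.84 and 3.7 FPKM in e12.3 and 4.79, 3.81 and 4.29 in e12.4, against 13.3, 11.5 and 12.2, where e12.3 replicates 1 and 2 lay above e12.4 and replicate 3 below it. In each of these but Adgrl4 all 3 e12.4 libraries lay beyond all 3 e12.3 libraries, on the side away from Renilla. Groups that did not overlap, on whichever side, were found for 10.1% of all genes.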

How the data were processed

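RNA of the 18 libraries was made into directional poly(A) libraries, per the labels' protocols. The authors deposited FPKM values per gene, in a table of the whole series and in 15 separate tables that differ from it by at most 3.3e-06 FPKM. The submitters' processing notes name bcl2fastq 2.22.0.422, Salmon 0.13.0, R 3.5.3, DESeq2 1.22.1 and the build mm10, with no role or order. How Salmon's transcript estimates became FPKM per gene is not given in the sources used here, and how reads were split between related genes is not known. Depth was estimated from 1473 single-transcript genes of at least 2000 bases, whose low values are whole multiples of what 1 read is worth (99.2% to 100% of them within 10% of a whole read). It ran from 22.4 to 191 M reads, median 33.6, over the 18 libraries.

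Genes averaging 1 FPKM or more were tested on log2(FPKM + 1) with limma 3.58.1 (trend, R 4.3.3), in 1 model of 6 group means over 18 libraries, or 17 without e12.3 replicate 3, with Benjamini-Hochberg adjustment over the 11550 genes. The same test set each guide against Renilla, and e20.1 with e21.1 against mock in a model of those groups. The statistics were checked on simulated data.

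Genes named were the 21 fixed ones, up to 4 members a list by smallest p without e12.3 replicate 3, and called genes of at least 5 FPKM with groups that do not overlap and a symbol that is no accession name, of which there were none. Not every one is printed. Tlr7, Lilra6 and other list members fall under the list rule, and Prtn3, Osm, Klf6, Nt5e, Cd28, Igfbp4, Adgrl4 and BX890553.1 were chosen after their values were seen. The comparison, the lists and the fixed genes were chosen with earlier results of these data known, and the alternatives without the libraries that stand apart, and with list members of at least 5 FPKM, after seeing the data.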

Additional observations from a re-analysis of the deposited data

Results flagged for a closer look

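BX890553.1 was the only gene called between the guides without e12.3 replicate 3, with a log2 difference, e12.4 minus e12.3, of 3.40 (limma adjusted p = 0.0015). It was listed at 0 in e12.3 replicates 1 and 2, at 11.3 FPKM in e12.3 replicate 3, at 8.34, 10.8 and 9.56 FPKM in e12.4 and at 8.41, 11.6 and 11.2 in Renilla. A value of 0 in such a table may be a failed estimate, the symbol is not in the annotation used here, and the size of the difference is set by the pseudocount of 1, with 6.59 at a pseudocount of 0.1, so it is not to be read as a fold. The call was lost without e12.3 replicate 2 (adjusted p = 0.063), and with all libraries the difference was 2.19 (0.72 to 3.66) and was not called.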

How the results depend on the processing

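Between the guides, the count of called genes was 0 with all libraries, and 1 with no filter on low values, 3 with array quality weights, 4 without the 4 libraries that stand apart, and 0 to 1 when each library was left out. Without e12.3 replicate 3 it was 1, and 11 with no filter, 2 with only these groups in the model, 2 with array quality weights, 3 without e21.1 replicate 3, 4 without the libraries that stand apart, and 0 to 2 with a further library left out. Against Renilla, the 370 genes called for e12.3 became 80 with only these groups, 2027 with array quality weights, 983 without the libraries that stand apart, and 252 to 392 with 1 library left out. The 819 called for e12.4 became 3908 with array quality weights, 1847 without the libraries that stand apart, and 491 to 638 with 1 library left out (531, 491 and 505 without e12.4 replicates 1 to 3). The 392 called for e12.3 without replicate 3 became 223 with only these groups, 1147 with array quality weights, 709 without e21.1 replicate 3, 983 without the libraries that stand apart, and 140 to 303 with 1 library left out (140 without e12.3 replicate 2, 251 without replicate 1). The cause was not tested.

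Pseudocount 0.1, upper-quartile scaling and a stricter filter moved no count by over 1.5 times. A replicate block, with the replicate number as a factor, gave 0 and 1 called genes between the guides and 550, 1196 and 515 against Renilla for e12.3, e12.4 and e12.3 without replicate 3. Over all tested genes, same-numbered e12.3 and e12.4 libraries deviated together with r = 0.05, 0.12 and 0.02. The e12.3 deviations are taken from a group mean that includes replicate 3, which stands apart, so these r cannot show whether replicates are paired. The DNA replication genes did follow the replicate number. Their median from the Renilla mean fell from replicate 1 to 3 in Renilla (0.23, -0.06 and -0.16), e12.3 (0.10, 0.02 and -0.21) and e12.4 (0.15, -0.01 and -0.13). It fell likewise in mock (0.12, -0.02 and -0.17), e20.1 (0.15, 0.11 and -0.12) and e21.1 (0.17, -0.02 and -0.50), and so in all 6 groups. The main model takes no account of the replicate number. Whether same-numbered libraries share a batch was not tested. The list medians stayed between 0.14 and 0.26 and between -0.24 and -0.10 under every setting tried, and Jmjd1c between 0.11 and 0.26. For 64 genes, 1833 alternative values between the guides were computed, of which 1817 kept their side of the threshold, 15 passed it and 1 dropped out (BX890553.1). For the same genes against Renilla 2804 were computed, of which 2544 kept their side, 130 passed it and 130 dropped out. None of these reversed a call, and between the guides 37 values of genes called in neither setting changed sign.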
